A study of Drosophila melanogaster with 3 samples.

Results

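Binding sites of the tagged CG17361 protein in the introns of very long genes are described here. They are the peaks whose summit lay more than 500 bp from every annotated transcription start site (TSS), outside every exon, and inside a gene longer than 50 kb. Of the 7804 peaks in the main peak list, 896 met this rule, or 11.5%. The rule uses gene lengths and positions only, not the height of a peak. The main list is the one the authors named conservative, and it compares replicates 1 and 3. The list that compares replicates 2 and 3 held 459 such peaks, and that of replicates 1 and 2 held 616. Both include replicate 2, whose own list is the shortest. Their share was 11.0% of the peaks in the list of replicates 2 and 3.

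The data come from chromatin immunoprecipitation followed by sequencing (ChIP-seq), which recovers the DNA fragments bound by a protein. The 3 libraries are biological replicates of a single group: whole Drosophila melanogaster embryos aged 0 to 24 h from a transgenic line in which CG17361 is fused to eGFP, a green fluorescent protein. The fusion was precipitated with an antibody against GFP, and the labels name neither the promoter that drives it nor whether an untagged copy of the gene was present. The embryos were whole and of mixed age, so a peak cannot be assigned to a tissue or stage, and there is no second condition. The replicates' own lists held 588, 394 and 600 of these intron peaks for replicates 1, 2 and 3, among 5942, 3797 and 5576 peaks. That is 10.3% ± 0.433 of a replicate's peaks (SD, n = 3). The labels do not say whether the replicates came from separate embryo collections, so the spread between them may be technical.

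Introns are transcribed and then spliced out of the RNA. In Drosophila many of the longest introns lie in genes for transcription factors, adhesion molecules, signalling proteins and ion channels, and they often hold enhancers, short elements that control when and where a gene is transcribed. An enhancer in the intron of a gene can act on that gene or on a neighbour, so the gene around a peak is called its host here and not its target.

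The strongest of these peaks show the base composition that recurred across the whole set: an A/T-rich summit between less A/T-rich flanks. The summit base and 75 bases to either side are shown for 9 of the 10 peaks with the highest signal, a score deposited by the authors whose scale the sources used here do not give. They were read from the RefSeq genome of release 6, which has the dm6 coordinates, on the + strand, and capitals mark every uninterrupted run of 8 or more A or T bases.
CG1677 intron peak, signal 1136, chrX:7307167-7307317: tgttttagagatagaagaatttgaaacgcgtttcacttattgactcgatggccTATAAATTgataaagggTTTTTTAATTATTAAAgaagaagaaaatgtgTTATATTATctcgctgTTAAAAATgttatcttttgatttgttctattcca
Tlk intron peak, signal 911, chrX:3742159-3742309: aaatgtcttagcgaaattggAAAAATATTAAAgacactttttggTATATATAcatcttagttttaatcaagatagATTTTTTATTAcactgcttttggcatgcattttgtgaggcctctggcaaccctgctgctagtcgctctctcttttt
Hr4 intron peak, signal 883, chrX:1947682-1947832: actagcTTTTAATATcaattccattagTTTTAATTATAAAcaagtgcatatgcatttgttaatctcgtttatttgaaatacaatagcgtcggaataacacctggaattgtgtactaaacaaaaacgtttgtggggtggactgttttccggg
CG33158 intron peak, signal 818, chr3L:16480488-16480638: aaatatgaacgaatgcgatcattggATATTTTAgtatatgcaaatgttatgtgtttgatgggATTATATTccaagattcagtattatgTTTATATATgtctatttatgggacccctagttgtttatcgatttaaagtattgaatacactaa
CG1677 intron peak, signal 793, chrX:7324952-7325102: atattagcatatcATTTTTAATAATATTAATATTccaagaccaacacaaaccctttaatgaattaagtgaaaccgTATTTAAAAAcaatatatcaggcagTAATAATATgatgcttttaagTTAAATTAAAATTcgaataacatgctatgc
osp intron peak, signal 775, chr2L:14674804-14674954: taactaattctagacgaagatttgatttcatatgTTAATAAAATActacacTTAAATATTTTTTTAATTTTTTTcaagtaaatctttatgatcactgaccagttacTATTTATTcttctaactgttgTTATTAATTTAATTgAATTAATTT
beat-Ib intron peak, signal 764, chr2L:15913045-15913195: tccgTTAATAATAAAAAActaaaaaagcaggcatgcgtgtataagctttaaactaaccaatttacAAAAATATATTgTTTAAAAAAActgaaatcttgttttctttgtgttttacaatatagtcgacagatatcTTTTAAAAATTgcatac
Msp300 intron peak, signal 742, chr2L:5145683-5145833: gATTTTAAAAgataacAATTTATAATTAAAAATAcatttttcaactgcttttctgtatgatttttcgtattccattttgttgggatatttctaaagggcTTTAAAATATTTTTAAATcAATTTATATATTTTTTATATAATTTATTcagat
Tlk intron peak, signal 738, chrX:3744173-3744323: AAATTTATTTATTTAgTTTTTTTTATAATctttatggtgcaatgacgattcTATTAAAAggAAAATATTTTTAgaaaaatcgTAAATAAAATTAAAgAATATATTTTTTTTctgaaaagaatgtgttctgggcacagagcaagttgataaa

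Each of these 9 sequences held such runs, covering between 22 of the printed bases at Hr4 and 76 at the weaker of the Tlk peaks. GC content within 50 bp of the summit ranged between 19.8% at osp and 31.7% at the stronger Tlk peak. The windows of the same length 250 bp to either side had 42.1% to 56.4% GC. The remaining peak of the 10, in sbb, had 31.7% GC at its summit and 35.1% beside it, the smallest difference of the 10.

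The strongest peak lay in an intron of CG1677 on X, 697 bp from the start of brk, a gene for a transcriptional repressor in the Dpp pathway. Its signal was 1136 in the main list, where it ranked 10 of 7804, and 453, 311 and 367 in the ranked lists of replicates 1, 2 and 3. The next, in Tlk (Tousled-like kinase), had 911 in the main list and 263, 278 and 375 in the replicates. The 10 were taken from peaks found in a thresholded list of every replicate, and no peak missing from a replicate had a higher signal. Their order was not the same in each replicate: the Msp300 peak ranked 203 in replicate 1, 398 in replicate 2 and 2758 in replicate 3. Msp300 encodes a large nesprin that positions nuclei in muscle. The peak in Hr4, a nuclear receptor of the ecdysone response, had 335, 237 and 328 in the replicates. That in beat-Ib, an immunoglobulin-family adhesion gene, had 316, 172 and 273. The sbb peak, in a transcriptional corepressor gene, had 297, 103 and 321, lowest in replicate 2. The nearest TSS belonged to another gene at 4 of the 10: brk and Dok at the 2 peaks in CG1677, a long noncoding RNA at beat-Ib, and aos, a secreted inhibitor of the EGF receptor, at CG33158. The summits nearest to Dok and aos also lay inside those shorter genes.

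Signals of the long-gene intron peaks were spread much like those of other intron peaks. The median signal was 207.9, with quartiles of 147 and 301, against 214.9 for the 1807 intron peaks inside genes of up to 50 kb. In the replicates' own lists the medians were 100.4, 79.4 and 107 in long genes, against 104, 82.6 and 111 in shorter ones. The difference was negative in 3 of 3 replicates, at -3.92, -3.20 and -4.27, or -3.80 ± 0.548 (SD, n = 3; two-sided exact sign-flip test over replicates, p = 0.25). With 3 replicates 0.25 is the smallest p this test can give, so no comparison below could pass 0.05. Few of the strongest peaks were of this kind. Of the 896 peaks, 25 were among the 500 strongest of the main list, or 2.79%, against 98 of the 1807 in shorter genes, or 5.42%, and 6.41% of all peaks. The share was similar among intergenic peaks, at 2.90% up to 5 kb from a TSS and 1.77% beyond.

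Detection by replicate followed signal. Of the 896 peaks, 299 (33.4%) were found in all 3 replicates, meaning that the summit lay inside a peak of each replicate's own thresholded list, where the background over all 7804 peaks was 36.9% and the share in shorter genes 36.3%. A further 207 were found in 2 replicates, 191 in 1 and 199 in none. The median signal of these 4 groups was 340.9, 222, 171 and 135. Among the 1951 strongest peaks of the main list, 96.3% of the long-gene intron peaks were found in every replicate. The share was 93.1% for intron peaks in shorter genes and 91.5% for all peaks. Among the 1951 weakest the shares were 3.48%, 4.50% and 5.74% in the same order. By replicate, 559 of the 896 lay in the list of replicate 1, 372 in that of replicate 2 and 571 in that of replicate 3, and replicate 2 had the shortest list. Among the long-gene intron peaks of the list that compares replicates 2 and 3, 64.1% were found in all 3. No share over all peaks was computed for that list or for the counts by replicate. Across the 765 peaks that all 3 ranked lists held, Spearman's rho between replicates' signals was 0.68 to 0.78, a description of peaks that share libraries and a control.

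Most of the long genes had such a peak, and the peaks were spread over many of them. The annotation holds 319 genes longer than 50 kb, 307 protein-coding and 12 noncoding, which is 1.76% of all genes. At least 1 of the intron peaks lay in 192 of them, or 60.2%. By replicate the number was 171, 153 and 168 genes, or 164 ± 9.64 (SD, n = 3). The other 127 genes had none, 32 had 1, 83 had 2 to 4, 54 had 5 to 9 and 23 had 10 or more. With each peak given to a single host, the 10 leading hosts held 170 peaks, or 18.97%, and 40 hosts held at least 50% of them. The body of each gene was also counted on its own, and the 10 genes with the most peaks in their body are described below. They include the noncoding CR44357, most of whose peaks are given to a coding host, and leave out RapGAP1, which had 13 peaks like ftz-f1 but a lower summed signal. The body of the gene around a peak was ambiguous for some: 61 peaks lay in several genes over 50 kb, 37 lay in a shorter gene too, and 19 lay only in a noncoding gene.

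**Figure D1:**
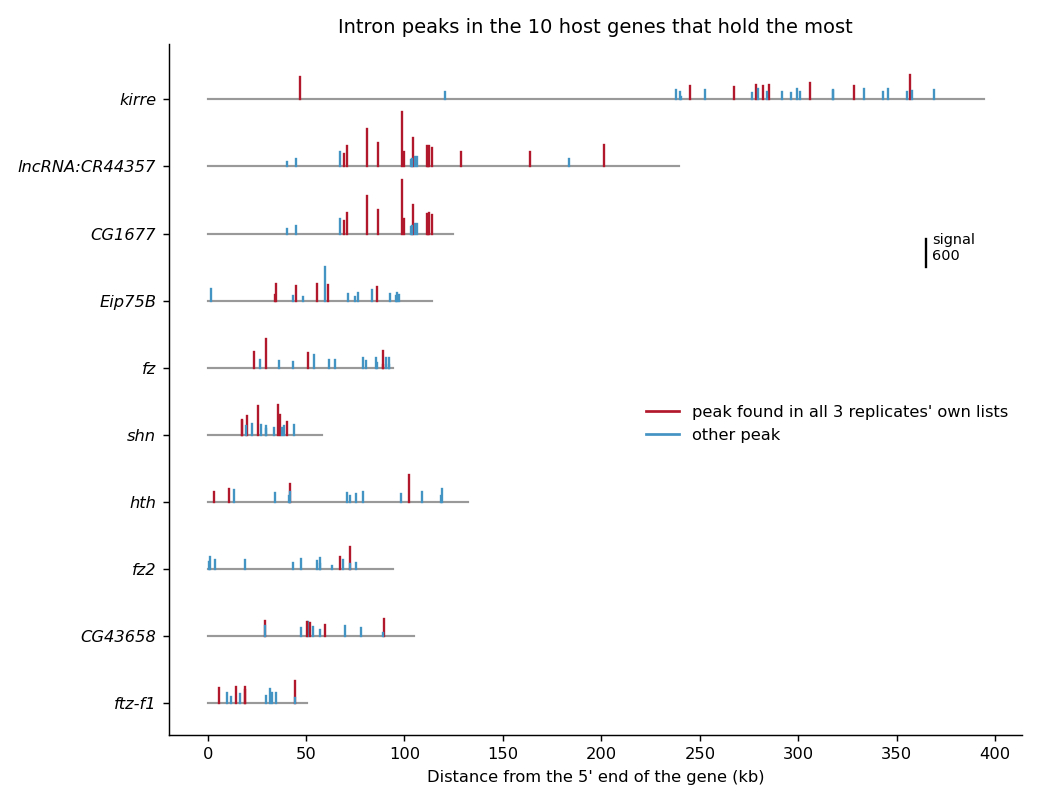
Positions of intron peaks in the leading hosts, as distance from the host's 5′ end in kb (horizontal axis), for the 10 genes with the most. The height of a mark is the peak's signal in the main list. Red marks are peaks found in all 3 replicates' own lists and blue marks the others. The 29 peaks of kirre lie mostly past the middle of the gene, and the 16 peaks of shn lie close together.

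kirre, on X, had the most peaks. It encodes an immunoglobulin-family adhesion protein of muscle founder cells. Its 394149 bp body held 29 peaks, of which 9 were found in every replicate, and the replicates' own lists had 17, 12 and 15. Their signals ranged between 56.5 and 505, and 27 of the 29 lay 200 kb or more from the gene's 5′ end. The peaks of kirre were thus many but of modest height, with a median signal of 197, near the median of the whole set.

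The noncoding gene CR44357 held 22 peaks, but its body contains that of CG1677, which held 18. In CG1677 the replicates' own lists had 16, 12 and 15 peaks, and 11 of the 18 were found in every replicate. A run of 7 of them spanned 7.67 kb, with at one end the peak 697 bp from brk. For 6 peaks of CG1677 the nearest TSS was that of brk, with signals between 134 and 1136 in the main list.

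Nuclear receptor genes and Wnt receptor genes were among the leading hosts. Eip75B, an ecdysone-induced nuclear receptor, had 18 peaks in the main list and 11, 6 and 12 in the replicates' own lists. ftz-f1, a nuclear receptor of the same hormone response, had 13, with 9, 7 and 10 in the replicates. The Wnt receptor genes fz and fz2 had 18 and 15. For fz the replicates' lists had 10, 6 and 12 peaks, and for fz2 they had 6, 2 and 8. Replicate 2 was lowest for each of these 4 genes. The strongest peak in Eip75B had a signal of 715, that in fz 609, that in ftz-f1 464 and that in fz2 457. The strongest of Eip75B was missing from the list of at least 1 replicate.

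Close to these in number were shn and hth. shn encodes a zinc finger transcription factor of the Dpp pathway and had 16 peaks, 7 of them found in every replicate, with 14, 8 and 13 in the replicates' lists. hth encodes a homeodomain cofactor of Hox proteins and also had 16, with 10, 5 and 13 in the replicates. CG43658 had 14 peaks, with 8, 7 and 10 in the replicates. Among hosts with 5 or more peaks, shn was the densest at 372 peaks per Mb of its qualifying intron sequence. It was followed by ftz-f1 at 321, Smr at 242, pnt at 230.04 and sbb at 214 per Mb. Smr and sbb encode corepressors, and pnt an ETS transcription factor of the EGF receptor pathway. Qualifying sequence means bases that meet the same rule as the summits.

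Peaks of the same host tended to lie near each other. The median gap between neighbouring peaks of a host was 3863.5 bp over 708 gaps, and 400 gaps were at most 5 kb. Runs joined by gaps of at most 5 kb numbered 199 and held 599 peaks, or 66.9%. The longest run was in shn, where all 16 peaks lay within 26.7 kb. In sbb 10 of the 12 peaks lay within 17.9 kb. Many runs of 2 peaks spanned only about 0.2 kb, among them those in CG42747 (0.202 kb), Dys (0.2 kb) and osp (0.207 kb). In hth 3 summits lay within 0.398 kb. These spans are below the median peak width of 610 bp. Overlapping intervals that were not identical counted as separate peaks. The runs, the gaps and the peak counts of hosts can thus include overlapping calls of a single site, and how many do was not computed. The gaps between peaks were not compared with those of random positions.

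Gene groups differed in how many of their long members had a peak. The 6 lists were chosen with earlier results of these data known, and their counts are a description to be read against the 60.2% of all long genes. Transcription factors of development had a peak in 23 of 27 genes over 50 kb (85.2%), with 23, 21 and 21 in the replicates' own lists, and 85.1 peaks per Mb of their qualifying sequence against 36.02 per Mb over all long genes. The strongest were in Hr4 (883), Eip75B (715), mamo (694) and psq (686), the last 2 of them genes for BTB-domain transcription factors. The longest without a peak in the main list were br, an ecdysone-response regulator, and the Hox gene Ubx. br had 1 such peak in the own lists of replicates 1 and 2, and Ubx 1 in that of replicate 1.

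Signalling genes had a peak in 9 of 10, with 9 in each replicate's own list. Examples beside fz and fz2 are the tyrosine phosphatase gene Ptp61F with 9 peaks and the cAMP phosphodiesterase gene dnc with 3. rl, the ERK kinase gene, had none in the main list or in a replicate's list. RNA-binding and splicing genes had a peak in 10 of 12, with 9, 7 and 9 in the replicates. The median was 2 peaks per gene, as over all long genes, and the density was 22.02 per Mb. Among those with the strongest peaks, mub had 1, pum 7, Rbfox1 6 and mbl 2. pum encodes a translational repressor, and mbl and Rbfox1 encode splicing factors. bru1 and Syp had none in the main list.

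Adhesion and guidance genes had a peak in 17 of 34, with 15, 13 and 15 in the replicates, and 32.8 peaks per Mb. Beside kirre, the homophilic adhesion gene Fas3 had 5, Sema1a, a transmembrane guidance cue, had 7, and Ten-a, a teneurin, had 12. dpr6 and the receptor phosphatase gene Lar were the longest with none. Cytoskeleton and muscle genes had a peak in 5 of 9, with 5, 3 and 3 in the replicates. Msp300 had 4, RhoGEF64C 4, sdt 3 and the spectraplakin gene shot 7, and the titin-like gene sls had none.

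Ion channels and neurotransmitter receptors had the fewest. Only Sh, a voltage-gated potassium channel gene, and nAChRalpha4, an acetylcholine receptor subunit gene, had a peak, 2 of 16 or 12.5%. Their 3 peaks gave 3.26 per Mb of the list's qualifying sequence. The replicates' own lists had 2, 3 and 1 of the 16 genes. Sh had 1 peak with a signal of 250 and nAChRalpha4 had 2, the stronger at 194. The long nicotinic receptor genes nAChRalpha6 and nAChRalpha3 had none. The share of these genes was below that of all long genes in each of the 3 replicates, and whether it reflects where in the embryo the genes are active was not tested.

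**Figure D2:**
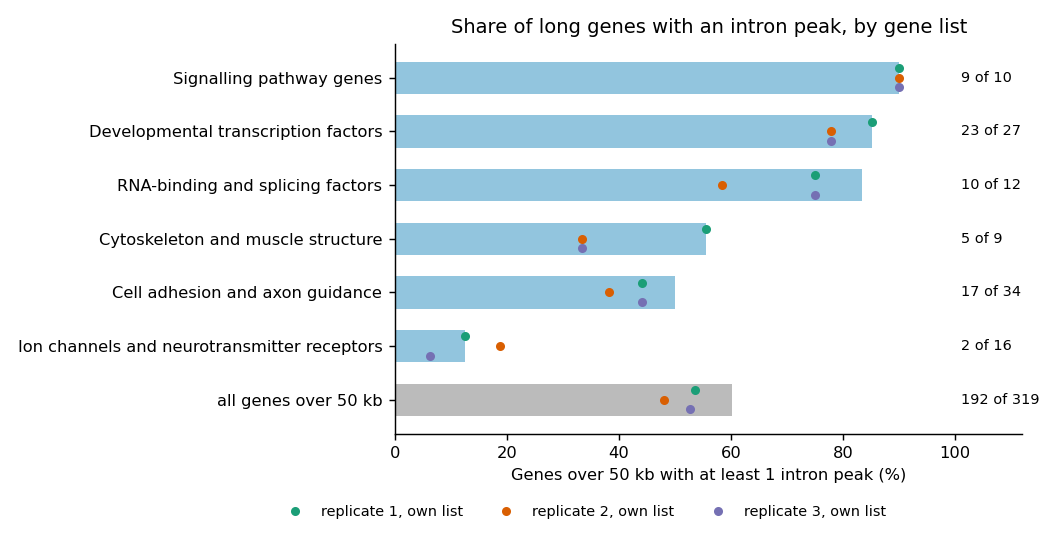
Share of genes over 50 kb with at least 1 intron peak (horizontal axis, %), for 6 gene lists and for all 319 such genes. Bars are the main list and points the 3 replicates' own lists. Ion channels and receptors stand at 12.5% and developmental transcription factors at 85.2%, against 60.2% for all.

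Long genes with an intron peak also had peaks at their promoters more often than long genes without. A gene with a summit within 500 bp of one of its TSSs is called promoter-bound, and 22.3% of all annotated genes were. Of the 192 long genes with an intron peak 94 were promoter-bound, or 49.0%, against 18 of the 127 without, or 14.2%. The first group had a median of 2 TSSs and a median length of 77.5 kb, the second 1 TSS and 72.2 kb. The part of TSS number in this difference was not tested. Across the 319 genes the number of peaks had a Spearman's rho of 0.32 with the number of TSSs and of 0.09 with the length of qualifying sequence, genes of one annotation that share the same libraries. Over the 319 genes, more intron thus went with hardly more peaks. The genes with the most qualifying sequence, Myo81F and Pzl, had none in the main list, and rho without them was not computed. At the 50 kb limit itself, the genes just inside were Sytbeta with 50283 bp and 1 peak, ab with 1, pHCl-1 with 0, ftz-f1 with 13 and caps with 3. Those just outside were Octalpha2R with 49945 bp and 0, NetA with 7, Dyrk2 with 1, Plc21C with 0 and CG42673 with 0. In wider bands there was no step at the limit. An intron summit lay in 40 of 68 genes of 45 to 50 kb (58.8%) and in 23 of 41 of 50 to 55 kb (56.1%). The median was 1 summit per gene in both bands.

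The sequence of long-gene introns held fewer peaks per length than that of shorter genes. Qualifying sequence came to 25.5 Mb, which is 19.1% of the chromosome arms and 48.2% of all such intron sequence, yet it held 33.1% of intron peaks. The density was 35.2 peaks per Mb in long genes and 66.1 per Mb in shorter ones, a ratio of 0.532. Long genes differed widely in this. The most qualifying sequence lay in Myo81F (1945025 bp), Pzl (701626 bp) and lovit (429441 bp), and none of them held a peak in the main list. CG17684 (389553 bp) held 1 and DIP-lambda (370291 bp) none. kirre, with 333203 bp, held 29. The ratio without such genes was not computed. In the replicates' own lists the ratio was 0.480, 0.472 and 0.518, or 0.490 ± 0.0246 (SD, n = 3), below 1 in 3 of 3 (exact sign-flip test, p = 0.25). Repeats marked in the genome sequence covered 26.0% of the long-gene sequence and 20.3% of the other, and over unmarked bases alone the ratio was 0.563.

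Distance from the nearest TSS went with much of this gap. Between 0.5 and 1 kb from a TSS there were 94.998 peaks per Mb in long genes and 106 in shorter ones. Beyond 20 kb there were 11.2 and 13.9, the latter from only 8 peaks. Within the 6 distance ranges the ratio in the main list lay between 0.718 and 0.895, nearer to 1 than the pooled 0.532. The ratio stayed below 1 in 3 of 3 replicates in 5 of the ranges (exact sign-flip test, p = 0.25 each). Between 2 and 5 kb the 3 replicates gave 0.832, 0.858 and 1.04 (exact p = 0.5). Beyond 20 kb they gave 0.821, 0.416 and 0.666, or 0.635 ± 0.204 (SD, n = 3). There replicate 2 was below its own pooled ratio of 0.472. Long genes hold far more of their sequence beyond 20 kb of a TSS, 8.06 Mb against 0.575 Mb.

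**Figure D3:**
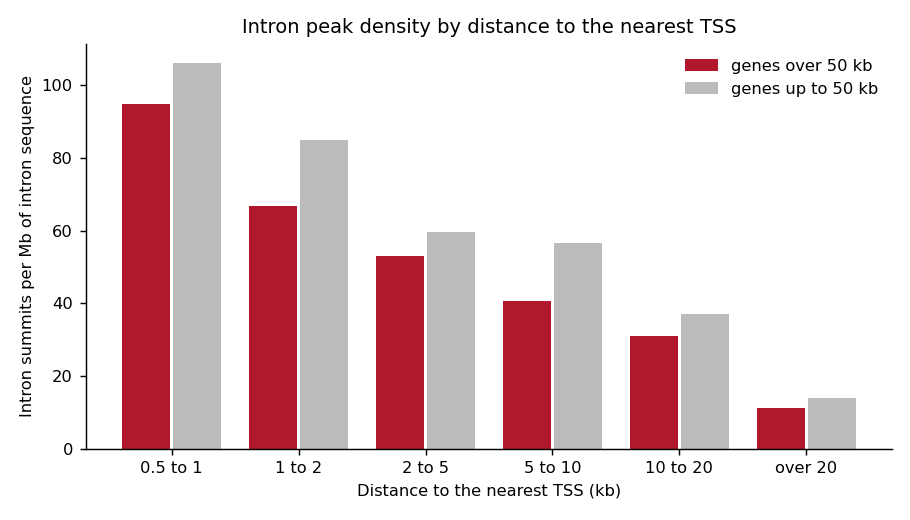
Peaks per Mb of qualifying intron sequence (vertical axis) by distance from the nearest TSS in kb (horizontal axis), for genes over 50 kb and up to 50 kb. Both fall with distance, to 11.2 and 13.9 per Mb in the farthest range, where shorter genes had only 8 peaks.

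The nearest TSS lay a median of 5128.5 bp away, with a range of 501 to 59350 bp. For 516 of the 896 peaks (57.6%) it was a TSS of the host, which is nearest for 40.8% of the qualifying sequence. For 338 (37.7%) it was that of another gene starting inside the host, nearest for 49.1% of the sequence. For the other 42 (4.69%) it was a gene starting outside the host, against 10.04% of the sequence. CG4116 was nearest to 10 peaks, CG13481 to 9 and aos to 5. The median signal differed little between the 3 kinds, at 210.2, 201 and 200.05.

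In the main list, peaks were densest toward the 5′ end of their host. Within 2 kb of that end there were 96.3 per Mb, between 20 and 50 kb 39.8, and beyond 50 kb 24.2. In the replicates' own lists these densities were 62.3 ± 24.3, 22.5 ± 4.50 and 14.3 ± 3.44 per Mb (SD, n = 3). The fall was uneven, with 61.3 per Mb between 2 and 5 kb and 69.9 between 5 and 10 kb in the main list. In replicate 2 the range from 5 to 10 kb was densest, at 36.8 per Mb against 35.0 within 2 kb. The first intron of at least 1 transcript of the host held 439 peaks, or 49.0%, and 32.7% of the sequence. That gave 52.7 peaks per Mb there and 26.7 in the other introns. A first intron by this rule can be a later intron of another transcript and need not lie near the gene's 5′ end. A peak in dnc counted as first-intron at 80.4% of the gene's length. By replicate the share of peaks in such first introns was 50.8% ± 0.553 (SD, n = 3). Along the length of the host, the first 10% held 135 peaks in 9.85% of the sequence, or 53.8 per Mb. The last 10% held 27 in 6.34% of the sequence, or 16.7 per Mb. Between 20% and 90% of the length the density varied little, from 27.9 to 34.5 per Mb. The leading hosts did not all share this order. Past the midpoint of the gene lay 27 of the 29 peaks of kirre, 16 of 18 in CG1677, 13 of 18 in fz, 11 of 18 in Eip75B, 10 of 15 in fz2, and 9 of 16 in both shn and hth. In CG43658 it was 7 of 14, in ftz-f1 6 of 13 and in CR44357 4 of 22.

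**Figure D4:**
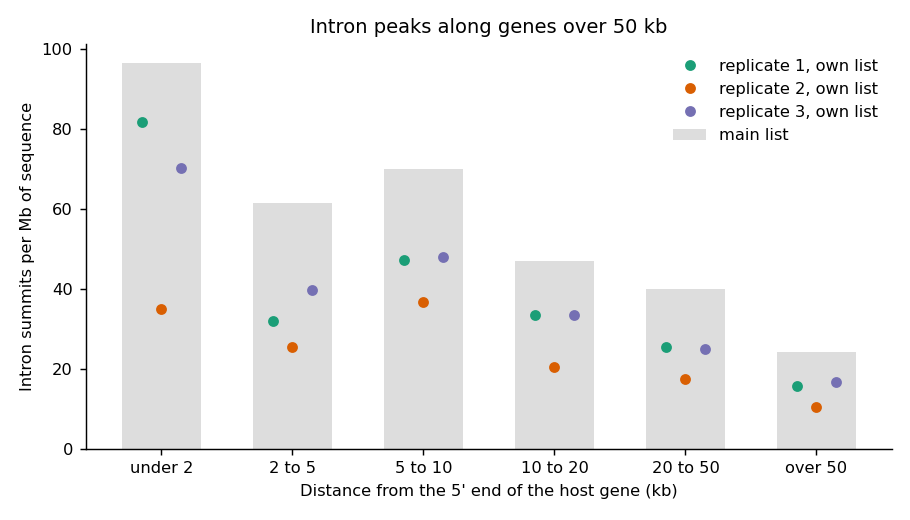
Peaks per Mb of qualifying sequence (vertical axis) by distance from the host's 5′ end in kb (horizontal axis). Bars are the main list and points the 3 replicates' own lists. In the main list the density is highest next to the 5′ end at 96.3 per Mb and is 24.2 per Mb beyond 50 kb.

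By chromosome arm the density was 44.05 per Mb on 2L, 41.5 on X, 38.7 on 3L, 29.7 on 2R and 26.1 on 3R. Of the 6.78 Mb of qualifying sequence on 3R, 1945025 bp lay in Myo81F and 701626 bp in Pzl, which held no peak. The density of 3R without these genes was not computed. In the replicates' own lists the means were 26.4 ± 7.37, 24.6 ± 3.56, 21.3 ± 5.32, 19.02 ± 4.03 and 15.2 ± 3.79 per Mb in that order of arms (SD, n = 3). Neighbours in this order differed by less than the larger of their 2 SDs, but replicate 2 was lowest on each of these arms, which widens the SDs. Within each of the 3 replicates X stood above 3L, 3L above 2R and 2R above 3R. 2L stood above X in replicates 1 and 3 and below it in replicate 2. Chromosome 4 has 1 gene of this length, with 0.0228 Mb of qualifying sequence and no peak.

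The A/T-rich summit seen in the printed sequences held for most of the set. Mean GC content was 31.6% within 50 bp of the summit and 43.7% in the windows 250 bp to either side, a dip of -12.1 percentage points, and qualifying sequence as a whole had 40.1%. The dip was -12.4, -14.7 and -12.0 in the replicates' own lists, or -13.1 ± 1.46 (SD, n = 3), negative in 3 of 3 (exact sign-flip test, p = 0.25). GC was lower at the summit in 734 of the 896 peaks, or 81.9%. Peaks in shorter genes had 31.8% at the summit and 43.5% beside it. The dip of the long-gene peaks minus theirs was -0.40 points in the main list and -0.62 ± 0.608 in the replicates (SD, n = 3; negative in 3 of 3, exact sign-flip test, p = 0.25), about the size of the spread. Peaks found in every replicate had 29.2% at the summit and 45.6% beside it, and those found in none 32.9% and 43.5%. By signal, those among the 1951 strongest peaks of the list had 28.3% and 46.2%, and those among the 1951 weakest had 35.9% and 41.3%.

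**Figure D5:**
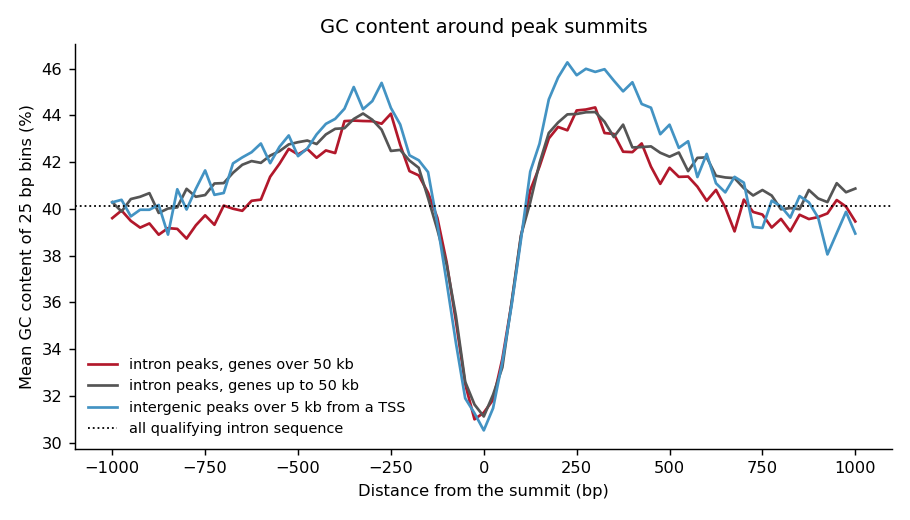
Mean GC content (vertical axis, %) in steps of 25 bp by distance from the summit in bp (horizontal axis), for the long-gene intron peaks, intron peaks of shorter genes and intergenic peaks over 5 kb from a TSS. The dotted line is the 40.1% of all qualifying sequence. All 3 sets dip at the summit, to 31.0% at the lowest step of the long-gene set.

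Several short words, most of them made of A and T, were commoner at summits than beside them. Each of 30 motifs was searched on both strands within 50 bp of the summit and in the flanking windows, and the same was done in 249338 windows tiled over the qualifying sequence. An uninterrupted A/T run of 8 or more bases was present at 82.1% of summits, in 51.7% of flanks and in 58.7% of tiled windows. The TATA word TATAAA was present at 26.5%, in 9.54% and in 12.7%. The homeobox core TAATTA was at 11.3% of summits, in 4.97% of flanks and in 7.23% of tiled windows. The GATA word AGATAA was at 8.71%, in 4.74% and in 5.82%. The words ATATTTTA and TTTAAAAA, picked with results of these peaks known, were at 6.47% and 7.37% of summits against 0.949% and 1.84% of flanks. They were in 2.26% and 2.72% of tiled windows. Both words can lie inside an A/T run, and the TATA and homeobox words can be part of one. These shares were not particular to long genes. At summits of intron peaks in shorter genes and of all peaks, A/T runs were at 79.7% and 79.4%. TATAAA was at 27.8% and 26.1% of them, TAATTA at 11.7% and 11.3%, and AGATAA at 9.63% and 7.96%. ATATTTTA was at 5.70% and 6.36%, and TTTAAAAA at 6.36% and 7.27%.

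Of the 8 motifs that met the rule for naming, 2 were less common at the summits than beside them. The GAGA word GAGAG was at 8.71% of summits, in 14.96% of flanks and in 11.8% of tiled windows. The core of the Su(H) motif, TGGGAA, was at 4.80%, in 7.25% and in 6.38%. At summits of intron peaks in shorter genes and of all peaks, GAGAG was at 8.69% and 8.35%, and TGGGAA at 5.48% and 5.16%. Each of these 8 differences had the same direction in all 3 replicates, as the rule for naming a motif required. In the replicates TATAAA was at 28.1% ± 2.28 of summits and GAGAG at 8.21% ± 0.405 (SD, n = 3). Summits are poorer in G and C as a whole, and the part of base composition in the word counts was not tested. A match is a description of these windows and not evidence that a factor was bound.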

How the data were processed

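ChIP-seq peak lists of 3 replicates were analysed. Per the deposited file listings, the authors mapped reads to dm6 and made the lists against a control library. The sources used here name no aligner or caller. The authors deposited peak signal as a score of unstated scale and the irreproducible discovery rate (IDR) as a −log10 value, at least 2 (an IDR of 0.01) in thresholded lists. No read counts accompany the lists, so depth is unknown.

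The main list compares replicates 1 and 3, identified by lines identical to a replicate's list. A peak is an interval counted once, with its strongest summit. Intervals that overlap without being identical stayed separate peaks. Genes are from Ensembl release 115, without transposable elements, and coordinates count from 1. The host is the shortest protein-coding gene over 50 kb around a summit, or else another such gene. Named items were the 10 strongest peaks found in every replicate, the 10 genes with most peaks in their body (ties by summed signal), the 5 densest with at least 5, up to 4 leading genes per list, the longest without a peak, and motifs that differed by 1.5 times or more, in the same direction in every replicate, and reached 5% in either window set. Members and lists were chosen with earlier results of these data known. Replicate values come from each replicate's own thresholded list. Scripts (Python 3.11.15, NumPy 2.4.6, SciPy 1.17.1) were tested on simulated data. Alternatives varied the list, IDR threshold, gene length, TSS distance, replicates and repeats.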

Additional observations from a re-analysis of the deposited data

How the results depend on the processing

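No analysis paired between conditions was possible because the replicates form 1 group. No result reversed. The 896 peaks became 491 at an IDR of 0.001, 299 if found in every replicate, 323 in genes over 100 kb, and 459 to 896 leaving out a replicate. Their 11.5% share became 12.02% in the pooled list, 10.7% at the stricter IDR, 10.4% found in all, 14.9% and 4.14% at 40 and 100 kb, 12.5% and 10.4% with TSS limits of 250 and 1000 bp, and 11.0% to 11.6% leaving out a replicate. The median signal was 285 at the stricter IDR, 341 for peaks found in all, and 208 to 295 leaving out a replicate. The share found in all was 58.9% at the stricter IDR and 33.4% to 64.1% leaving out a replicate. The first-intron share was 47.9% in the pooled list, 50.1% at the stricter IDR, 52.8% found in all, 54.0% and 44.6% at 40 and 100 kb, and 49.0% to 50.3% leaving out a replicate. Genes with a peak numbered 60 at 100 kb and 151 to 192 leaving out a replicate. The signal difference (-29.6 to -4.99), density ratio (0.397 to 0.563, the last over unmarked bases, an alternative chosen after seeing the data) and GC dip (-16.4 to -9.60 points) kept their direction in the alternatives run. Leaving out a replicate still kept its alignments in the shared peak list. Unknown depth limits what a missing peak means, so absence from replicate 2 is not absence of binding.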
